A study of Homo sapiens with 6 samples.

Results

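The 10 genes described here are 3 cytokines that signal through gp130 (IL6, IL11 and LIF), 3 colony-stimulating factors (CSF1, CSF2 and CSF3), 3 receptor chains of the gp130 family (IL6ST, LIFR and OSMR) and the feedback inhibitor SOCS3. They were chosen by name from a table of 60671 genes, with earlier results of these data known. All 10 of them passed the filter on low values that left 14377 genes for testing. U87 cells, an established human glioblastoma line, had been exposed for 48 h in serum-free medium to 100 μM rutaecarpine, a plant alkaloid studied as an agonist of the aryl hydrocarbon receptor (AhR), or to 0.1% DMSO, the solvent that both groups received. There were 3 libraries of the rutaecarpine group and 3 of the solvent control group. The study's statistics section describes replicates as independent experiments in general, and the labels do not say for these libraries whether they came from separate cultures, so the p-values measure the spread between these libraries, which may be technical. All values come from 1 cell line at 1 dose and 1 time.

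IL6, IL11 and LIF are secreted proteins that bind their own receptor chain and then recruit gp130, the shared signalling chain encoded by IL6ST. LIF uses LIFR together with gp130, and OSMR pairs with gp130 to receive oncostatin M. The receptor complex switches on JAK kinases, which phosphorylate STAT3, and STAT3 in turn raises SOCS3, an inhibitor that binds gp130 and the JAKs and shuts the signal down. CSF1 (M-CSF), CSF2 (GM-CSF) and CSF3 (G-CSF) drive the survival and maturation of macrophages and granulocytes through receptors found mainly on myeloid cells. Glioma cells are a known source of IL6, LIF and colony-stimulating factors, which act on the tumour cells themselves and on tumour-associated macrophages and microglia.

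The sequences below show the promoter motifs found at 3 of the members and the AU-rich elements in the messages of 3 cytokines. RefSeq promoters (GRCh38.p14) were given for 7 of the 10 members, in 10 windows, and not for LIF, CSF3 and CSF1, whose promoters were therefore not searched. The 250 bases before each given start site were searched on both strands for 4 motifs. These were the dioxin response core bound by AhR (CACGCNA, read on the other strand as TNGCGTG), the GAS element bound by STATs (TTCNNNGAA), an NF-kappaB-type site (GGANTTTCC, read on the other strand as GGAAANTCC) and the AP-1 site (TGANTCA). Of 35116 RefSeq windows of the same length, 4.52% held the dioxin response core, 6.57% the GAS element, 1.45% the NF-kappaB-type site and 6.57% the AP-1 site. The window of IL6 is chr7:22726950-22727199 on the plus strand, that of IL11 is chr19:55370464-55370713 on the minus strand, and that of SOCS3 is chr17:78360926-78361175 on the minus strand. Capitals mark the motif match, and each window ends at the base before the start site.
IL6 promoter: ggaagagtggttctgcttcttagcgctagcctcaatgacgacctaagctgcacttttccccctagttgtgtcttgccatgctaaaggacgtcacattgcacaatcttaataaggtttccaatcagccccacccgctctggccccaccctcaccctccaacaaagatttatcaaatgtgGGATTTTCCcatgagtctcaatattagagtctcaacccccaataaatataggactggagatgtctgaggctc
IL11 promoter: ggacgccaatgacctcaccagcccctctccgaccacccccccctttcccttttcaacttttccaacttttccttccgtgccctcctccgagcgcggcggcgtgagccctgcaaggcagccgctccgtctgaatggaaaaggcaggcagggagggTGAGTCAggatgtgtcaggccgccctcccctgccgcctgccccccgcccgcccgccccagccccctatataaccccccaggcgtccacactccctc
SOCS3 promoter: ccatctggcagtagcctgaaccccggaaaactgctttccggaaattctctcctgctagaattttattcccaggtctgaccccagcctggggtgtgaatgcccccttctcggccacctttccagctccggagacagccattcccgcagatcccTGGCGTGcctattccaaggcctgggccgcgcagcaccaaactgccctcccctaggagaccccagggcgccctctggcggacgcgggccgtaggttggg
IL6 had an NF-kappaB-type site whose first base lies 72 bases before the start, IL11 an AP-1 site at 96 bases and SOCS3 a dioxin response core at 98 bases. A different RefSeq window of SOCS3, chr17:78359668-78359917, held none of these motifs. This window and that of IL6 lie inside the GENCODE gene bounds given with each gene further on, since the annotations place the starts differently. The printed window of SOCS3 lies wholly upstream of its GENCODE start at chr17:78360077. The 250 bases before that GENCODE start were in neither window and were not searched. CSF2 had a GAS element 190 bases before its start, and LIFR had a GAS element in 2 of its 3 windows, at 182 and 165 bases. None of the 4 motifs was found in the windows of IL6ST and OSMR. These are matches of letters within a short window and say nothing about binding.

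The messages of many cytokines carry AU-rich elements in the 3′ UTR, which bind proteins that set how long the message lasts. The nonamer TTATTTATT, which contains the shorter pentamer ATTTA, was found in the 3′ UTR of 5 of the 10 members and in 8.97% of 11412 tested genes with a 3′ UTR in GENCODE release 29. This search was added after the expression values were seen. A stretch of 30 bases around the first nonamer is given for the cytokines, with the nonamers in capitals. It lies at chr19:55365946-55365975 on the minus strand for IL11, at chr22:30240957-30240986 on the minus strand for LIF and at chr5:132076073-132076102 on the plus strand for CSF2.
IL11 3′ UTR: aagccagatcTTATTTATTTATTTATTtca
LIF 3′ UTR: ctccgggcccTTATTTATTatttaaacatt
CSF2 3′ UTR: tttaaaatatTTATTTATTTATTTATTtaa
With overlapping copies each counted, IL11 had 6 copies of the nonamer, CSF2 had 3, LIF and OSMR had 2 each, and LIFR had 1. By the same count 2.04% of the tested genes had 2 or more. The 3 copies of CSF2 overlap in the single run printed above. The pentamer ATTTA was densest in CSF2, at 25.2 per kb of 3′ UTR, followed by IL6 at 14.0 and CSF3 at 8.2 per kb. In all 10 members its density was above the median of the tested genes, which was 1.75 per kb, and the lowest was 1.86 per kb in CSF1.

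The libraries and the treatment were checked first. Values are TPM, in which reads assigned to a gene are divided by transcript length and each library is brought to the same sum, so that levels can be compared between genes while the depth is unknown. Control replicate 3 stood apart: its log2(TPM + 1) correlated with the other controls at a Pearson r of 0.965, against 0.986 between those. Control replicates 1 and 2 correlated with the rutaecarpine libraries at 0.962 to 0.968, so control replicate 3 was about as far from them as those libraries were. In control replicate 3, protein-coding transcripts over 5 kb were at a median of 0.617 times their level in control replicates 1 and 2. TIPARP, an AhR target, had a TPM of 15.12, 11.91 and 8.08 in the control group and of 110.59, 90.07 and 119.17 in the rutaecarpine group, and CYP1B1 rose too (log2 fold change 2.52, adjusted p = 0.00191). AHRR had a TPM of 0.45, 0.33 and 0.07 in the control group and of 5.93, 2.8 and 4.86 in the rutaecarpine group (log2 fold change 2.07, adjusted p = 0.00472). It passed the filter on low values only through the rutaecarpine group, so its p-value is no independent check of the treatment. CYP1A1 was near 0 in the control group and between 1.12 and 1.18 in the rutaecarpine group. Of 8 markers of glioma lines, VIM, FN1, CD44 and CHI3L1 were at a TPM of 414.57 or more in every library, NES was between 12.29 and 21.02, GFAP between 3.48 and 5.41 and OLIG2 between 1.48 and 4.11, and SOX2 was at most 0.06. VIM, FN1 and NES fell (log2 fold change -0.63, -0.89 and -0.53) and OLIG2 rose (0.83). Of 16 markers of myeloid, lymphoid, endothelial and epithelial cells, 2 reached a TPM of 1 in any library. The 6 myeloid markers summed to 0.37 to 0.55 in the control group and 0.33 to 0.94 in the rutaecarpine group, with AIF1 and TYROBP at 0 throughout.

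Genes were compared on the log2(TPM + 1) scale with limma, with p-values adjusted by the Benjamini-Hochberg method over all 14377 tested genes. Genes were called DEGs where the adjusted p was 0.05 or less and the log2 fold change was above 1 in size, the limits used in the study. Of the 10 members, 4 were higher DEGs (LIF, CSF3, IL6 and IL11) and 0 were lower DEGs, against 2.01% of all tested genes for higher DEGs and 1.50% for lower DEGs. By the adjusted p alone, 4 members rose and 2 fell (SOCS3 and CSF1), against 4.60% of all tested genes that rose and 4.68% that fell. In these 6 members the values of the groups did not overlap, a pattern shown by 19.3% of tested genes with higher and 14.0% with lower values in the rutaecarpine group. The values of the groups overlapped for the other 4 members, CSF2, IL6ST, LIFR and OSMR. Since the members were chosen with earlier results known, their counts beside the shares of all tested genes are a description. The median log2 fold change was 0.53 over the members and 0.08 over all tested genes. RNA of a whole culture was measured, so more RNA per cell and more cells that express a gene cannot be told apart.

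**Figure D1:**
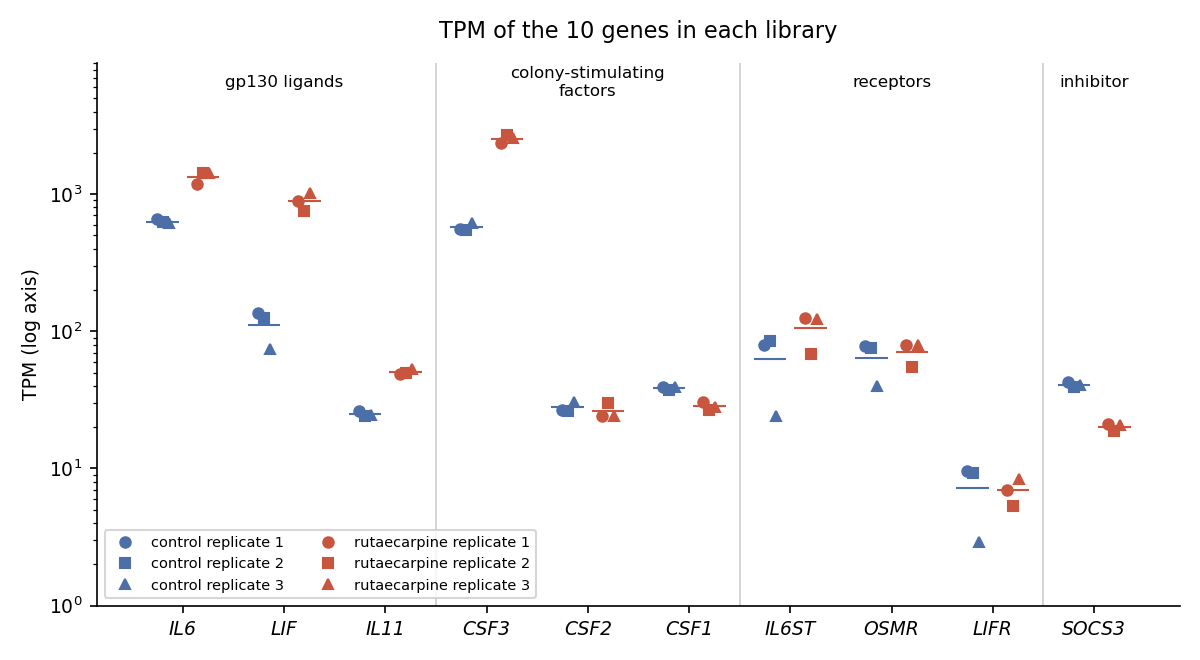
TPM of the 10 genes in each library on a log axis, with control libraries in blue, rutaecarpine libraries in red, a marker shape for each replicate and a horizontal line at each group mean. The rutaecarpine libraries lie above all control libraries for IL6, LIF, IL11 and CSF3 and below them for SOCS3 and CSF1, and control replicate 3 lies lowest for LIF, IL6ST, OSMR and LIFR.

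LIF, which maintains stem-like states and induces acute-phase genes, showed the largest change among the members. The gene (ENSG00000128342) lies at chr22:30240447-30246851 on the minus strand of GRCh38. Its TPM was 135.54, 124.36 and 73.81 in the control group and 893.85, 752.49 and 1021.32 in the rutaecarpine group. Every rutaecarpine library was more than 5 times above the highest control, and the lowest control value was that of replicate 3, at 0.568 times the mean of the other controls. The mean rose from 111 ± 32.9 to 889 ± 134 (SD, n = 3), a ratio of 7.99. On the log2(TPM + 1) scale the change was 3.02 (SE 0.23, 95% confidence interval 2.47 to 3.58, adjusted p = 0.000724), which ranked 15 among the 14377 tested genes ordered from the largest rise. By mean TPM, LIF moved from rank 1230 among the tested genes to rank 156. Without control replicate 3 the log2 fold change was 2.75, still that of a DEG.

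IL6 (ENSG00000136244, chr7:22725884-22732002 on the plus strand), the main inflammatory ligand of the family, was already abundant in the control group. Its TPM was 654.24, 623.27 and 617.72 in the control group and 1190.89, 1418.23 and 1419.28 in the rutaecarpine group. The controls lay close together, control replicate 3 included, and no rutaecarpine library came near them. The mean rose from 632 ± 19.7 to 1343 ± 132 (SD, n = 3), with a log2 fold change of 1.08 (SE 0.09, 95% confidence interval 0.87 to 1.30, adjusted p = 0.000962). The size of this rise lies close to the limit for DEGs, and after centring each library on its median it was 0.99 (adjusted p = 0.0131), just under it.

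IL11 (ENSG00000095752, chr19:55364389-55370463 on the minus strand), a ligand with roles in bone, decidua and fibrosis, was expressed at a lower level. Its TPM was 26.07, 23.98 and 24.45 in the control group and 49.17, 50.02 and 53.02 in the rutaecarpine group. The spread within each group was narrow, and the mean rose from 24.8 ± 1.1 to 50.7 ± 2.02 (SD, n = 3). The log2 fold change of 1.002 (SE 0.09, 95% confidence interval 0.78 to 1.22, adjusted p = 0.00143) was barely above the DEG limit. It fell below this limit without control replicate 2 (0.98), without control replicate 3 (0.99), without rutaecarpine replicate 3 (0.97) and with median-centred libraries (0.91), with an adjusted p no higher than 0.0286 in any alternative.

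CSF3 (G-CSF, ENSG00000108342, chr17:40015361-40017813 on the plus strand), which drives the production of neutrophils, was the most abundant member after treatment. The control libraries had a TPM of 558.91, 547.78 and 619.79, and the rutaecarpine libraries 2357.21, 2683.5 and 2566.44. The groups were far apart, and each replicate lay within a narrow range of its group. The mean rose from 575 ± 38.8 to 2536 ± 165 (SD, n = 3), a ratio of 4.41, with a log2 fold change of 2.14 (SE 0.09, 95% confidence interval 1.94 to 2.34, adjusted p = 5.54e-05). CSF3 ranked 47 among the tested genes ordered from the largest rise, and by mean TPM it moved from rank 231 to rank 46.

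Of the other colony-stimulating factors, CSF1 fell and CSF2 did not pass the test. For CSF2 (GM-CSF, ENSG00000164400, chr5:132073790-132076170 on the plus strand), a growth factor of granulocytes and macrophages, the TPM was 26.66, 26.2 and 30.74 in the control group and 24.19, 30.26 and 24.2 in the rutaecarpine group. These values overlapped, and the log2 fold change of -0.09 had a 95% confidence interval from -0.40 to 0.22 (adjusted p = 0.709). For CSF1 (M-CSF, ENSG00000184371, chr1:109910242-109930992 on the plus strand), the growth factor of macrophages and microglia, the TPM was 39.11, 37.57 and 39.24 in the control group and 30.73, 26.87 and 27.95 in the rutaecarpine group. All 3 rutaecarpine libraries lay below all 3 controls, and the mean fell from 38.6 ± 0.929 to 28.5 ± 1.99 (SD, n = 3). The log2 fold change was -0.43 (SE 0.10, 95% confidence interval -0.66 to -0.19, adjusted p = 0.041). This call was lost with median-centred libraries (adjusted p = 0.0745), without the mean-variance trend (0.0643), without the filter on low values (0.0554) and with the replicate number as a block (0.179). It was also lost on leaving out control replicate 1 (0.126), control replicate 2 (0.11) or rutaecarpine replicate 1, 2 or 3 (0.0937, 0.14 and 0.169), and it held without control replicate 3 (0.0216). The 95% confidence interval of CSF3 did not overlap those of CSF1 and CSF2.

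**Figure D2:**
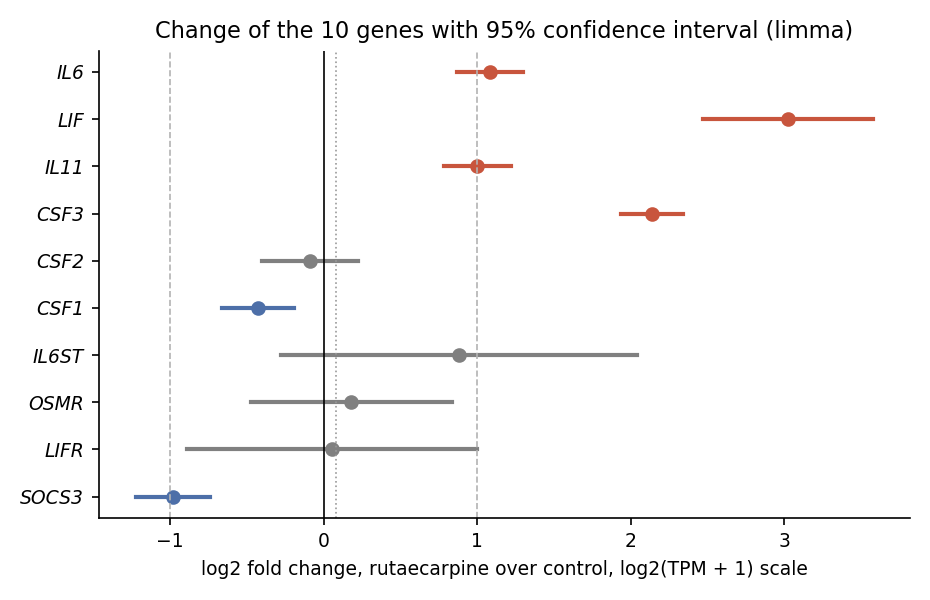
Log2 fold change of rutaecarpine over control for the 10 genes on the log2(TPM + 1) scale, with the 95% confidence interval from limma as a bar. Red marks genes that rose and blue genes that fell at an adjusted p of at most 0.05, dashed lines mark the DEG limit of 1, and the dotted line is the median of all tested genes at 0.08. LIF and CSF3 lie well above the limit, IL6 and IL11 at it, and the receptor chains IL6ST and LIFR have the widest intervals.

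Among the secreted factors, the composition changed along with the total. The summed TPM of the 6 cytokine genes was 1441, 1383 and 1406 in the control group and 4546, 4961 and 5112 in the rutaecarpine group. Every rutaecarpine library was more than 3 times above every control. In the control group IL6 made up 44.8% of this sum on average and CSF3 40.8%, and in the rutaecarpine group their shares were 27.5% and 52.0%. LIF went from 7.88% to 18.3%. IL11 went from 1.76% to 1.04%, although its own level rose, CSF1 from 2.74% to 0.588% and CSF2 from 1.98% to 0.538%. Shares within a sum depend on each other and were not tested.

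**Figure D3:**
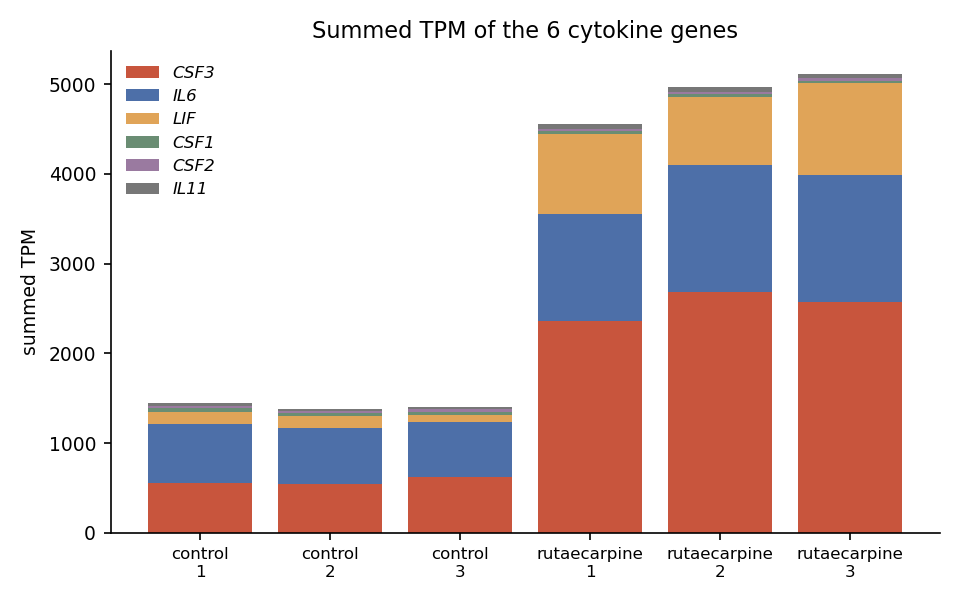
Summed TPM of the 6 cytokine genes in each library, with the contribution of each gene as a coloured segment and the axis starting at 0. The control libraries reach 1383 to 1441 and the rutaecarpine libraries 4546 to 5112, where CSF3, IL6 and LIF make up nearly the whole bar.

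IL6ST (ENSG00000134352, chr5:55935095-55994993 on the minus strand) encodes gp130, the chain that all 3 ligands need. Its TPM was 79.84, 84.85 and 24.19 in the control group and 125.81, 68.07 and 123.95 in the rutaecarpine group. The groups overlapped, since rutaecarpine replicate 2 lay below control replicates 1 and 2, and control replicate 3 was at 0.294 times the mean of the other controls. The log2 fold change was 0.88 with a 95% confidence interval from -0.28 to 2.04 (adjusted p = 0.326), an interval that holds both 0 and the DEG limit. Without control replicate 3 it was 0.31.

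LIFR (ENSG00000113594, chr5:38474963-38608354 on the minus strand), the chain that binds LIF, was the least expressed member, with a TPM of 9.6, 9.27 and 2.91 in the control group and 7.01, 5.37 and 8.4 in the rutaecarpine group. Control replicate 3 was again the lowest library, at 0.308 times the mean of the other controls. The log2 fold change of 0.06 (95% confidence interval -0.89 to 1.00, adjusted p = 0.943) turned to -0.41 (adjusted p = 0.17) without that library and to -0.04 with median-centred libraries.

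OSMR (ENSG00000145623, chr5:38845858-38945596 on the plus strand), the chain for oncostatin M, had a TPM of 77.88, 75.51 and 39.78 in the control group and 78.95, 55.22 and 78.84 in the rutaecarpine group. Here too control replicate 3 was lowest, at 0.519 times the other controls, and rutaecarpine replicate 2 was the lowest of its group. The log2 fold change was 0.18 (95% confidence interval -0.47 to 0.83, adjusted p = 0.716) and turned to -0.13 without control replicate 3. The reference transcripts of IL6ST, LIFR and OSMR are the longest among the members, at 9057, 10089 and 5539 bases, and their low values in control replicate 3 went with those of other long transcripts. Over the tested protein-coding genes with a GENCODE reference transcript, and on TPM + 1, control replicate 3 was at a median of 1.09 times the other controls for transcripts under 2 kb (2998 genes), 0.826 times from 2 to 5 kb (6190 genes) and 0.617 times over 5 kb (2842 genes). In rutaecarpine replicate 2 the same ratios to its group were 1.03, 0.918 and 0.82. The part of transcript length in these differences was not tested.

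**Figure D4:**
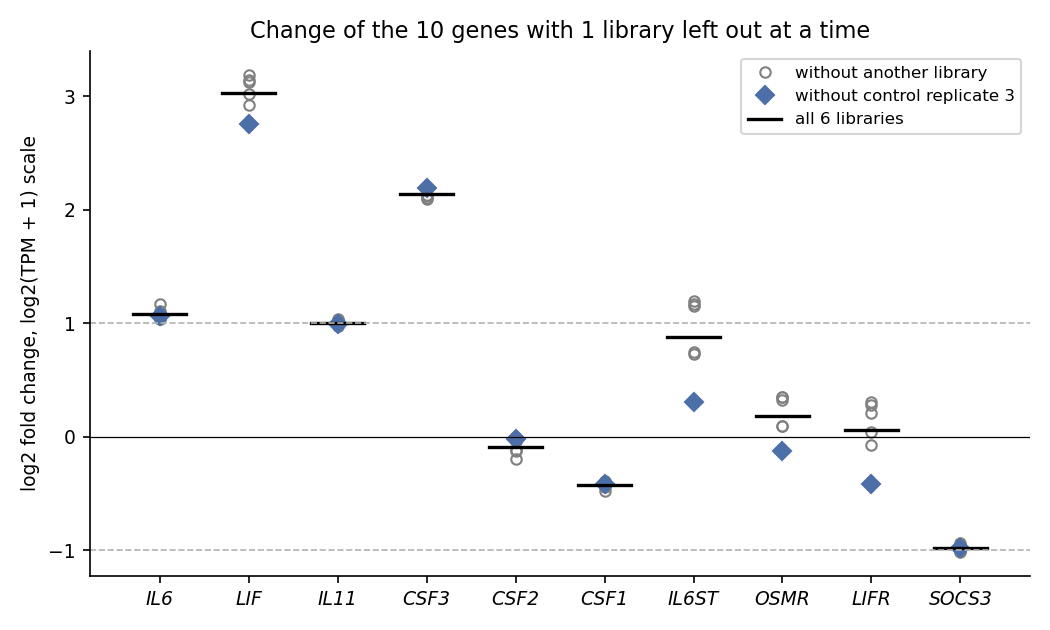
Log2 fold change of the 10 genes on the log2(TPM + 1) scale with all 6 libraries (black bar), without control replicate 3 (blue diamond) and without each of the other libraries (open circles), with dashed lines at the DEG limit. IL6ST goes from 0.88 to 0.31, and LIFR and OSMR pass below 0, when control replicate 3 is left out. All members except LIFR and OSMR stay on their side of 0 in every fit shown.

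SOCS3 (ENSG00000184557, chr17:78356778-78360077 on the minus strand), the inhibitor that STAT3 normally raises, was lower in the rutaecarpine group. Its TPM was 42.71, 39.08 and 40.88 in the control group and 20.93, 18.8 and 20.89 in the rutaecarpine group. The libraries of each group lay within a few TPM of each other, control replicate 3 included, and the groups were clearly apart. The mean fell from 40.9 ± 1.82 to 20.2 ± 1.22 (SD, n = 3), a ratio of 0.494. The log2 fold change was -0.98 (SE 0.10, 95% confidence interval -1.22 to -0.74, adjusted p = 0.00201), just short of the DEG limit, which ranked 286 among the tested genes counted from the largest fall. Under the alternatives it ranged from -1.08 to -0.93, with an adjusted p no higher than 0.031. It passed the DEG limit with median-centred libraries (-1.08), with a pseudocount of 0.1 (-1.01) and without control replicate 2 (-1.01), rutaecarpine replicate 1 (-1.01) or rutaecarpine replicate 3 (-1.01). The fall of SOCS3 and the rises of LIF, IL6 and IL11 were seen in the same libraries.

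The levels of the members can be ranked within each group, since TPM are scaled by length. The ranking has a limit, as transcripts over 5 kb were at medians of 0.617 in control replicate 3 and 0.82 in rutaecarpine replicate 2, relative to the other libraries of the group. In the control group IL6 and CSF3 led, with overlapping ranges, followed by LIF, OSMR, IL6ST, SOCS3 and CSF1, each of which overlapped its neighbour in this order. CSF2, IL11 and LIFR followed without overlap. The overlaps of LIF with OSMR and of IL6ST with SOCS3 came only through control replicate 3, with a TPM of 73.81 for LIF and 24.19 for IL6ST. In the rutaecarpine group CSF3, IL6 and LIF led in this order with no overlap between them. IL6ST and OSMR came next and overlapped, then IL11, then CSF1 and CSF2, which overlapped, and then SOCS3 and LIFR. IL11 went from the ninth place to the sixth, and SOCS3 from the sixth to the ninth.

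Of 5 other receptor chains of the family, 3 could be tested and 0 passed, against 4.60% of all tested genes that rose and 4.68% that fell. IL6R, the chain that makes a cell sensitive to IL6, had a TPM of 3.02, 3.4 and 1.31 in the control group and 6.84, 2.51 and 3.38 in the rutaecarpine group, with a log2 fold change of 0.52 (95% confidence interval -0.36 to 1.40, adjusted p = 0.437). IL11RA, the chain for IL11, had a TPM of 17.43, 15.94 and 15.48 in the control group and 10.59, 10.44 and 13.62 in the rutaecarpine group. The groups of IL11RA did not overlap, but the log2 fold change of -0.47 did not pass the test (adjusted p = 0.105). IL31RA, which pairs with OSMR for IL31, had a TPM between 6.09 and 11.76 and a log2 fold change of 0.11 (adjusted p = 0.816), IL27RA stayed between 0.1 and 0.31, and CNTFR was listed at 0 in every library. Of 8 other ligands of the family, 3 could be tested and 0 passed, with log2 fold changes from -0.03 to 0.38. Counts of 0 among so few genes lie near the shares of all tested genes.

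The receptors for the colony-stimulating factors were also checked. CSF3R, the receptor for CSF3, was at most 0.11 in any library, CSF2RB, the signalling chain for CSF2, was listed at 0 in every library, and CSF2RA was at most 1.08. CSF1R, the receptor for CSF1 and IL34, had a TPM of 7.26, 8.33 and 7.65 in the control group and 6.64, 5.98 and 7.33 in the rutaecarpine group (log2 fold change -0.20, adjusted p = 0.47). These receptors were named after their values were seen. IL34, the other ligand of CSF1R, had a TPM of 3.97, 3.07 and 2.62 in the control group and 10.53, 7.58 and 7.54 in the rutaecarpine group. It was a DEG (log2 fold change 1.18, SE 0.20, adjusted p = 0.0147), whereas CSF1 fell by 0.43 on the log2 scale. The call of IL34 was lost with the replicate number as a block (adjusted p = 0.0542) and without 4 of the 6 single libraries, namely control replicate 2 (adjusted p = 0.0572) and rutaecarpine replicates 1, 2 and 3 (adjusted p = 0.0691, 0.0519 and 0.0562).

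Of 9 genes of the kinases, STATs and adaptors that carry the signal, 8 could be tested and 0 passed, against 4.60% of all tested genes that rose and 4.68% that fell. A count of 0 among so few genes lies near these shares. STAT3, the main transcription factor of the pathway, had a TPM of 48.85, 46.52 and 31.14 in the control group and 46.77, 32.94 and 44.34 in the rutaecarpine group. Its log2 fold change was -0.02 (95% confidence interval -0.51 to 0.47, adjusted p = 0.968). STAT5B was between 6.02 and 12.8, with a log2 fold change of 0.34 (adjusted p = 0.437), and STAT5A was at most 1.82 and was not tested. Among the kinases, JAK1 was between 57.69 and 99.35 and TYK2 between 93.5 and 120.34, with log2 fold changes of 0.21 and 0.14. JAK2 had a TPM of 12.18, 12.13 and 5.12 in the control group and 5.16, 4.82 and 6.52 in the rutaecarpine group. Its log2 fold change was -0.66 (adjusted p = 0.263), and without control replicate 3 it was -1.03 (adjusted p = 0.00471). The adaptors PTPN11 and GAB1 had log2 fold changes of 0.57 and 0.32, with control replicate 3 the lowest library of both.

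Of the 14 other negative regulators, which include the remaining SOCS genes, 12 could be tested and 0 passed, against 4.60% of all tested genes that rose and 4.68% that fell. A count of 0 among so few genes lies near these shares. The log2 fold changes ran from -0.61 in SOCS1 to 0.58 in SOCS7, with a median of 0.23. SOCS1, the closest relative of SOCS3, had a TPM of 4.05, 4.05 and 5.82 in the control group and 2.71, 2.91 and 2.38 in the rutaecarpine group. Its groups did not overlap, and its log2 fold change of -0.61 did not pass the test (adjusted p = 0.101). SOCS1 and SOCS7 were named after their values were seen.

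Of 27 genes listed as STAT3 targets, 16 could be tested, 3 rose and 3 fell, against 4.60% of all tested genes that rose and 4.68% that fell. The genes that rose were TIMP1, an inhibitor of matrix metalloproteinases (log2 fold change 0.93, adjusted p = 0.00532), CEBPB, a transcription factor of inflammatory genes (0.94, adjusted p = 0.00393), and JUNB, a subunit of AP-1 (0.47, adjusted p = 0.014). The genes that fell were CEBPD, a relative of CEBPB (-0.79, adjusted p = 0.00706), MYC, a driver of growth (-0.67, adjusted p = 0.00785), and LBP, an acute-phase protein that binds bacterial lipopolysaccharide. LBP was the only DEG of this list, with a TPM of 2.81, 2.58 and 4.13 in the control group and 0.68, 0.4 and 0.71 in the rutaecarpine group (log2 fold change -1.37, SE 0.21, adjusted p = 0.00809). Its rutaecarpine values all lay below the filter limit of 1, so it passed the filter through the control group alone. The p-value of LBP is therefore no independent support for its fall. The median log2 fold change of the tested genes of this list was 0.33. TIMP1 was the most abundant of those that passed, at 2394.29, 2407.92 and 2958.45 in the control group and 4717.5, 5565.46 and 4494.38 in the rutaecarpine group. Without control replicate 3 both TIMP1 (log2 fold change 1.03) and CEBPB (1.04) passed the DEG limit, and the rise of TIMP1 did not pass the test with median-centred libraries (adjusted p = 0.0908). The rise of JUNB did not pass with median-centred libraries (adjusted p = 0.183), with the replicate number as a block (0.0975) and without control replicate 1 or 2 (0.0587 and 0.057) or rutaecarpine replicate 1, 2 or 3 (0.0669, 0.065 and 0.0593). The fall of MYC did not pass with the replicate number as a block (adjusted p = 0.0686). All these genes also respond to signals other than STAT3, and those that are not DEGs were named after their values were seen.

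Of 8 genes for proteins that bind and degrade or protect cytokine messages, 1 rose and 0 fell, against 4.60% and 4.68% of all tested genes. The gene that rose was ZC3H12A (regnase-1), which cleaves the messages of IL6 and other cytokines, with a log2 fold change of 0.41 (adjusted p = 0.0363), named after its value was seen. It did not pass with median-centred libraries (adjusted p = 0.203), without the mean-variance trend (0.0733), without the filter on low values (0.0517), with the replicate number as a block (0.168) and without control replicate 1 or 2 (0.114 and 0.0798) or rutaecarpine replicate 1, 2 or 3 (0.159, 0.11 and 0.125). The 2 proteases that shed the IL6 receptor had log2 fold changes of 0.44 and 0.95 and did not pass the test. Over all 8 lists, 54 of 82 genes could be tested. Of these, 5 rose and 3 fell, LBP among the latter, against 4.60% and 4.68% of all tested genes. The median log2 fold change was 0.25. The lists were chosen with earlier results of these data known, so their counts are a description. The share that fell was near that of all tested genes.

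**Figure D5:**
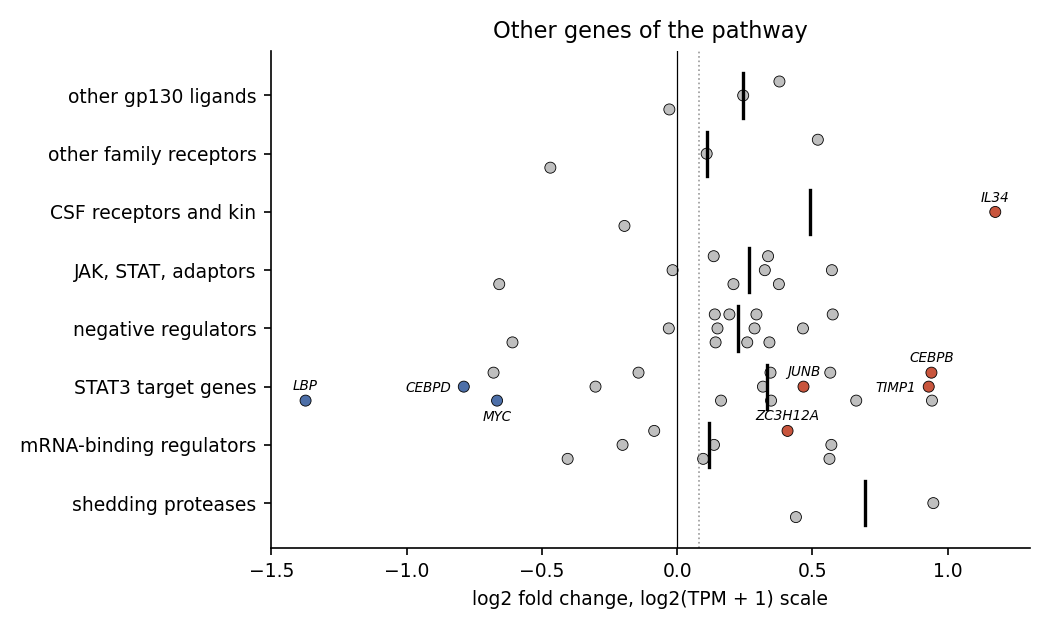
Log2 fold change on the log2(TPM + 1) scale of the 54 tested genes in the 8 lists of other pathway genes, 1 point per gene, with the median of each list as a black bar and the median of all tested genes as a dotted line. Genes that rose (red) or fell (blue) at an adjusted p of at most 0.05 are named, and they are 5 and 3 in number, with both directions among the STAT3 targets. The ligand IL34 is named in the row of CSF receptors and kin. No gene is named in the rows of the other family receptors, of the kinases, STATs and adaptors, and of the negative regulators.

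The chromosomal neighbours of the members were examined on GRCh38 with GENCODE release 29, within 100 kb on either side. LIF-AS2, an antisense RNA that overlaps LIF, had a TPM of 4.39, 1.99 and 0 in the control group and 14.37, 9.49 and 19.54 in the rutaecarpine group (log2 fold change 2.56, adjusted p = 0.0414). The strand setting of the quantification is not given in the sources used here, so reads of LIF and LIF-AS2 cannot be told apart in the stretch they share. CASTOR1, an arginine sensor of the mTORC1 pathway located 38266 bp away on the strand of LIF, had a TPM of 8.53, 9.14 and 8.95 in the control group and 20.61, 19.38 and 20.78 in the rutaecarpine group. It was also a DEG (log2 fold change 1.11, adjusted p = 0.00224). OSM, the gene of oncostatin M next to LIF, was listed at 0 in the control libraries and at 0.31, 0.51 and 0.2 in the rutaecarpine libraries, below the filter.

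Of 7 tested neighbours of CSF3, 1 passed the test, THRA, which fell (log2 fold change -0.54, adjusted p = 0.0465). MED24, 1284 bp away, had a log2 fold change of 0.06 (adjusted p = 0.812) and PSMD3, 17401 bp away, one of 0.02 (adjusted p = 0.922). STEAP1B overlaps IL6 on the other strand with a TPM of 14.87, 16.5 and 12.3 in the control group and 11.01, 10.24 and 12.49 in the rutaecarpine group (log2 fold change -0.34, adjusted p = 0.241), and TOMM7, 80626 bp away, fell (-0.59, adjusted p = 0.0299). Of 27 tested genes within 100 kb of any member, 6 had an adjusted p of at most 0.05 and 2 were DEGs, both at LIF, against 4.60% higher and 4.68% lower by the adjusted p and 2.01% higher and 1.50% lower DEGs among all tested genes. LIF-AS2 is among these 6 and 2, and its reads cannot be told apart from those of LIF in the stretch they share. The neighbours were named after their values were seen, and the 6 calls were not followed through the alternatives.

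The genes with the most similar profile over the 6 libraries were sought for 4 members, as the smallest Euclidean distance between log2(TPM + 1) values centred on each gene's mean, among 8271 named genes with a mean TPM of at least 10. For LIF they were TIPARP (distance 0.218), GREM1, an antagonist of bone morphogenetic proteins (0.242), and SLC9A3-AS1 (0.278). For IL6 they were SAT1, an enzyme of polyamine breakdown (0.123), MTHFD2, a mitochondrial folate enzyme (0.143), and PNRC1 (0.153). For SOCS3 they were MCM7 (0.141), PAMR1 (0.149) and PCNA (0.163), of which MCM7 and PCNA belong to the DNA replication machinery. For IL6ST they were HIPK2 (0.11), AFF4 (0.297) and DLC1 (0.301), all low in control replicate 3, with TPM of 11.14, 8.19 and 11.64 there against 26.78 to 38.33 in the other controls. With 6 libraries in 2 groups, many genes that change by a like amount come out as near, and the distances are a description.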

How the data were processed

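RNA-Seq libraries of U87 cells in the solvent control (n = 3) and rutaecarpine (n = 3) groups were analysed, with groups and replicate numbers taken from the sample labels. The authors quantified genes with RSEM and deposited TPM, 1 column per library, and the submitters' processing notes name GRCh38.p13. All columns were matched to a sample. RSEM divides reads that match several genes, so overlapping genes are uncertain. TPM keep no depth, so no counting error can be given and count methods such as DESeq2 and edgeR, which the notes name for the authors' analysis, were not used here. The annotation release and the strand setting are not given in the sources used here.

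On the log2(TPM + 1) scale, the 14377 genes that reached a TPM of 1 in 3 or more libraries were compared with limma 3.58.1 in R 4.3.3 (empirical Bayes with a mean-variance trend, two-sided, Benjamini-Hochberg adjustment over all tested genes). Fold changes on this scale understate those of low genes. An exact permutation test of 3 against 3 libraries cannot go below p = 0.1. The script was tested on simulated data. Tables and figures were made in Python 3.11.15 with pandas 2.3.3 and matplotlib 3.10.9. Genes without a name in the table were named by Ensembl identifier (19542 of 35671).

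Members and gene lists were chosen with earlier results of these data known. Genes named are all members, DEGs of the pathway lists, the other gp130-family receptors and JAK-STAT genes (except 1 that is not reported here), 4 AhR targets and the 3 nearest profiles of 4 members, and others are said to be named after their values were seen. The alternatives were median-centred libraries, no trend, no filter on low values, a filter requiring a TPM of 1 in all libraries, a pseudocount of 0.1, the replicate number as a block, each library left out in turn and an adjusted p of at most 0.001. The rule on the adjusted p alone was added after the values were seen.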

Additional observations from a re-analysis of the deposited data

How the results depend on the processing

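The 10 members gave 130 values over 13 alternatives, of which 115 kept their direction and their call as a DEG or not, and CSF1, which is no DEG, lost its adjusted p of at most 0.05 in 9 alternatives beside that with the limit of 0.001. LIF (log2 fold change 2.75 to 3.19) and CSF3 (2.04 to 2.19) were DEGs in every alternative. Of the 4 higher DEGs among the members, 2 were left with median-centred libraries and 3 to 4 when 1 library was left out. Lower DEGs numbered 0, and became 1 (SOCS3) with centring and with a pseudocount of 0.1, and 0 to 1 when 1 library was left out. By the adjusted p alone, 2 members fell, 1 with centring, without the trend, without the filter and with the replicate block, 1 to 2 without 1 library, and 0 at an adjusted p of at most 0.001. Over all tested genes the 289 higher DEGs became 65 at that limit. The 216 lower DEGs became 29 at that limit, 125 with the replicate block and 153 to 330 without 1 library, with 330 without control replicate 3. Higher DEGs were 57.2% of all DEGs, against 46.0% with centring and 45.9% without control replicate 3. Among the pathway genes, the 1 higher DEG (IL34) became 0 with the block and at an adjusted p of at most 0.001, and 0 to 3 without 1 library, with 3 without control replicate 3. The 1 lower DEG (LBP) became 0 with a filter requiring a TPM of 1 in all libraries, where LBP was not tested. It also became 0 at an adjusted p of at most 0.001, and 1 to 2 without 1 library, with 2 without control replicate 3. LIFR turned to -0.036 with centring. Without 1 library, log2 fold changes that changed sign ranged from -0.41 to 0.30 in LIFR, -0.13 to 0.35 in OSMR, -0.12 to 0.58 in GAB1, -0.12 to 0.27 in IL31RA, -0.027 to 0.33 in JAK1 and -0.22 to 0.14 in STAT3. The cause of these shifts was not tested. The main fit was planned without a replicate block. Deviations from the group means correlated at 0.116, -0.266 and -0.215 between same-numbered libraries, which with 3 libraries per group cannot show whether the numbers mark pairs. The block left 318 of 505 DEGs. TPM give no depth, and 3 libraries per group limit the precision.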
